A study of Mus musculus with 50 samples.

Results

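The 7 genes described here, *Elf5*, *Tfap2a*, *Tfap2c*, *Krt7*, *Krt8*, *Krt18* and *Krt19*, are genes of the trophectoderm and of simple epithelia. They were listed by name, with earlier results of these data known, and all 7 were among the 18055 genes of the RNA-seq table. RNA-seq (SMART-seq2, which copies polyadenylated RNA) was done in mouse embryonic stem cells (ESCs) of the E14 background grown with serum, leukemia inhibitory factor and the GSK3 and MEK inhibitors known as 2i. There were 4 lines with 2 libraries each. The lines were the unedited parent (WT), cells without *Ezh2* (*Ezh2* KO), cells without *Ezh1* and *Ezh2* (*Ezh1/2* dKO) and cells that carry the point mutation Y726D in *Ezh2* on an *Ezh1* KO background (*Ezh2* Y726D). ChIP-seq peak lists of 1 library per line and target gave SUZ12 and H3K27me3 in these 4 lines and in a line with the *Ezh2* mutation R685C, also in *Ezh1* KO cells, and H3K27ac in the 4 mutant lines. Lists of H3K27me1, H3K27me2 and ATAC-seq regions came from the 4 lines with RNA-seq. HA peak lists came from *Ezh1/2* dKO cells transfected with HA-tagged human EZH1 and selected with puromycin, and from *Ezh1/2* dKO cells without it. The mutants were made by CRISPR/Cas9 and picked as clones, and the number of clones behind a line is not given in the sources used here. The study speaks of biological replicates in general, without saying for these libraries whether they came from separate cultures or clones, so p-values measure only the spread between these libraries.

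EZH1 and EZH2 are the alternative methyltransferases of Polycomb repressive complex PRC2, which places methyl groups on lysine 27 of histone H3, and SUZ12 is a core subunit of the same complex. H3K27me3 marks repressed developmental genes in ESCs, and acetylation of the same lysine (H3K27ac) marks active promoters and enhancers. The trophectoderm is the outer epithelium of the blastocyst, a lineage that ESCs do not normally form; *Elf5* encodes a transcription factor that maintains trophoblast stem cells, *Tfap2a* and *Tfap2c* encode AP-2 transcription factors, and *Krt7*, *Krt8*, *Krt18* and *Krt19* encode keratins of simple epithelia, in which KRT8 and KRT18 pair into one filament.

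The promoters of *Krt18*, *Krt8*, *Tfap2a* and *Elf5* are shown because the first 3 belong to the genes that changed and the last to the gene without a SUZ12 or H3K27me3 peak. Each sequence is the stretch before a start of the gene in RefSeq's promoter table (GRCm38.p6), read along the strand of the gene, and was placed in mm9 by an exact match. Bases that the mm9 annotation puts in an exon of the gene were left off, and capitals mark CpG dinucleotides, the pairs that PRC2-bound CpG islands are rich in.
Krt18 (chr15:101858397-101858646, plus strand): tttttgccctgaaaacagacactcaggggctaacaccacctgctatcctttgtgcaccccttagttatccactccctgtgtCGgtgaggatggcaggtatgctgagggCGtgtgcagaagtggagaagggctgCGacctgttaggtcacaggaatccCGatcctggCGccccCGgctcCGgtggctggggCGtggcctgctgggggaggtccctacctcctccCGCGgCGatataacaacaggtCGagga
Krt8 (chr15:101834774-101835023, minus strand): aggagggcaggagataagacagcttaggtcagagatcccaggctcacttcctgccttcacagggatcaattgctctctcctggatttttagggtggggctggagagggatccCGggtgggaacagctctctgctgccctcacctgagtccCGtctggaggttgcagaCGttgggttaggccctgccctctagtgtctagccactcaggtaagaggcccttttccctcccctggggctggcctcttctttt
Tfap2a (chr13:40829193-40829414, minus strand): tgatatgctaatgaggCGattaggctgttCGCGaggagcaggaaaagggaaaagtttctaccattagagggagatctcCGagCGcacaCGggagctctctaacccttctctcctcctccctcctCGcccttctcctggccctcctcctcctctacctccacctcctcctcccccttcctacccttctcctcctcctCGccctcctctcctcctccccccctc
Elf5 (chr2:103263975-103264218, plus strand): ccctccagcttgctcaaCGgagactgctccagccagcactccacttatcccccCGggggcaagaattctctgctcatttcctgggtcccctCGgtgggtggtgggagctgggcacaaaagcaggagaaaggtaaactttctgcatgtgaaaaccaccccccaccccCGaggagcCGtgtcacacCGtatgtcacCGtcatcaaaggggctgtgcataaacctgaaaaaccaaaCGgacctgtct

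In mm9, *Krt8* (chr15:101827142-101834773, minus strand) and *Krt18* (chr15:101858647-101862457, plus strand) are neighbours whose starts lie 23.9 kb apart and point away from each other, and *Krt7* (chr15:101241474-101260744, plus strand) is on the same chromosome. *Krt19* is at chr11:100002124-100009979 (minus strand), *Tfap2a* at chr13:40811044-40829192 (minus strand), *Tfap2c* at chr2:172375093-172384122 (plus strand) and *Elf5* at chr2:103251845-103291146 (plus strand). The *Krt18* window, which lies before the only annotated start of the gene, held 12 CpGs in its 250 bases, and the WT SUZ12 peak over it reached its summit 107 bases before the start. The *Krt8* window held 3 CpGs, and no SUZ12, H3K27me3 or H3K27ac peak of any line overlapped it. *Tfap2a* had 2 windows in the table with 10 CpGs each (8 of them in the stretch printed), *Krt7* had 1 with 16, and *Elf5* had 2 with 2 and 8, where the median over 32851 windows was 6. All counts here are over the full 250 bases of a window, exon bases included. Annotated exons held 162 bases of the *Krt7* window, 250 and 6 of the *Elf5* windows and 225 and 52 of the *Tfap2a* windows. The first *Elf5* start lay 385 bp from the nearest start annotated in mm9, and the first *Tfap2a* start 1097 bp. The median GC content of all windows was 52.4%, and the windows of the 5 genes had 60.4% (*Krt18*), 58.0% (*Krt8*), 66.0% (*Krt7*), 62.8% and 56.8% (*Elf5*), and 47.6% and 60.4% (*Tfap2a*), so 1 of the 7 windows lay below the median. *Tfap2c* and *Krt19* had no entry in the promoter table. The AP-2 motif GCCNNNGGC, searched on both strands, had 2 matches in the *Krt7* window and 1 in the *Krt18* window, while 13.7% of all windows held it. The GC box GGGCGG had 4 matches in the *Krt7* window and 1 in each *Tfap2a* window (32.7% of all windows held it), and TATAAA had none in the 7 windows (12.4% of all windows). Matches of the first 2 motifs may share bases.

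The targeted genes were checked first. *Ezh2*, which is deleted in 2 of the mutant lines, had 546 and 598 normalized counts in WT, 422 and 613 in *Ezh2* Y726D, where only a base change was made, and at most 1.78 in the *Ezh2* KO and *Ezh1/2* dKO libraries. *Ezh1* had 227 to 378 in WT and *Ezh2* KO and 14 to 24.1 in the other 2 lines. A normalized count is the number of reads on a gene divided by the size factor of its library, and the libraries held 3604123 to 5181553 reads on genes. All 10 ESC markers checked, *Pou5f1* and *Nanog* among them, had reads in every line, and their summed level was 16066 to 18121 normalized counts in WT, 16599 to 16649 in *Ezh2* KO, 14267 to 15334 in *Ezh1/2* dKO and 14740 to 16415 in *Ezh2* Y726D. Both *Ezh1/2* dKO libraries lay below those of WT and *Ezh2* KO. None of the 10 was called against WT by limma, edgeR or DESeq2, with 2 at an unadjusted p under 0.05 in *Ezh1/2* dKO and 0 in the other mutant lines.

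In WT cells the 7 genes spanned a wide range. Per kb of exon, so that genes can be compared, the mean level was 57.2 normalized counts for *Krt8* (41.4 to 73.1 over 2 libraries), 43.6 for *Tfap2c* (33.2 to 54.0) and 37.9 for *Krt18* (35.8 to 40), and these neighbours overlapped. *Krt19* at 16.4 (6.23 to 26.6) and *Tfap2a* at 12.2 (7.40 to 16.9) overlapped each other and lay below these 3 genes. *Krt7* at 0.258 and *Elf5* at 0.0819 were near the level of single reads. In *Ezh1/2* dKO the order by level per kb was *Krt8* (165), *Krt18* (151), *Krt19* (65.0), *Tfap2c* (48.0), *Tfap2a* (42.3), *Krt7* (2.0) and *Elf5* (0.0755). There the libraries of *Krt8* and *Krt18* overlapped each other, those of *Tfap2c* overlapped both *Krt19* and *Tfap2a*, and the libraries of *Krt18*, *Krt19* and *Tfap2a* did not overlap with one another. In *Ezh2* Y726D, *Krt8* (168) and *Krt18* (122) had the highest levels per kb and did not overlap, and *Tfap2a* (35), *Krt19* (31.8) and *Tfap2c* (31.7) followed with overlapping libraries. In *Ezh2* KO the levels per kb were 119.5 for *Krt8*, 83 for *Krt18*, 53.9 for *Tfap2a*, 31.2 for *Tfap2c* and 10.1 for *Krt19*, and none of these neighbours overlapped.

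**Figure D1:**
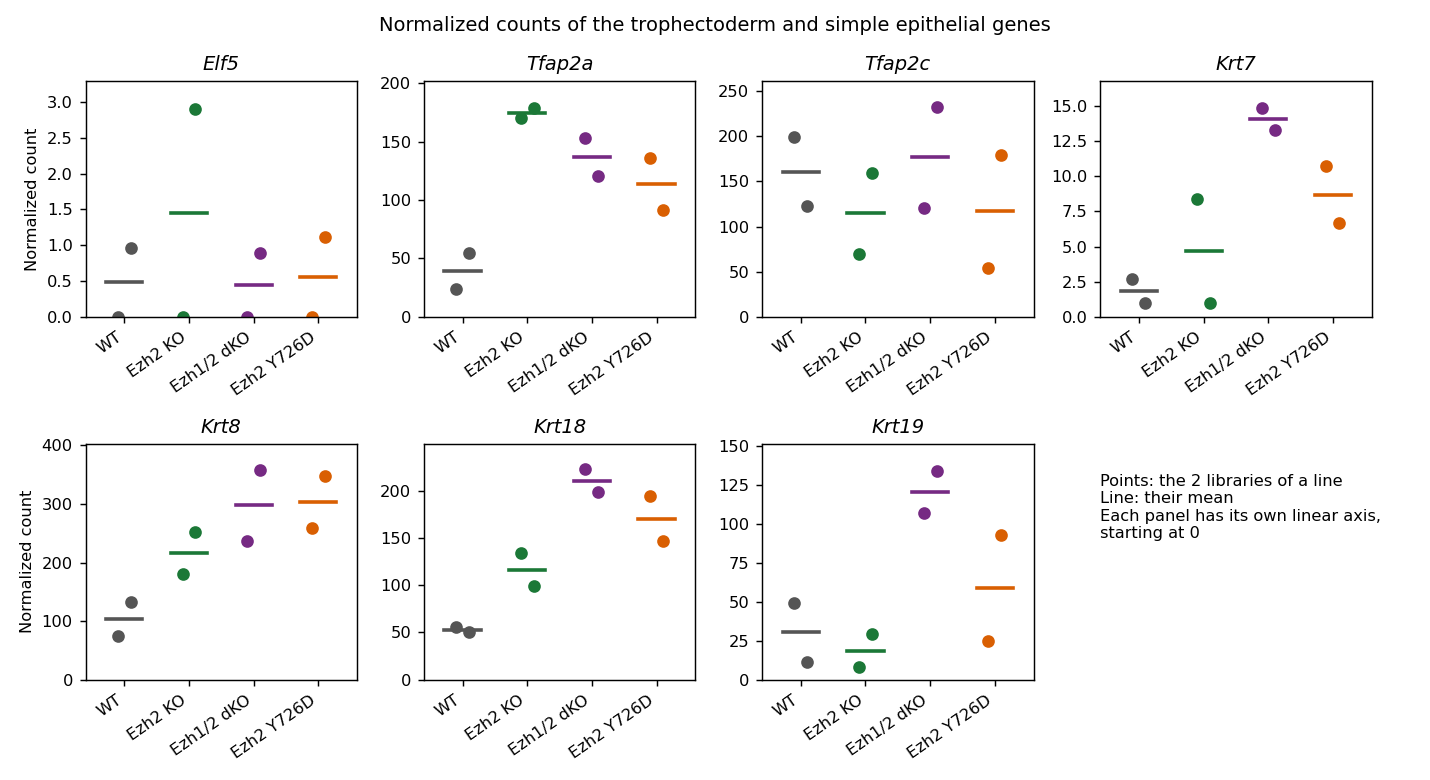
Normalized counts (vertical axis, linear from 0, 1 scale per gene) of the 7 genes in the 4 lines, with 1 point per library and a bar at the mean. Both libraries of each mutant line lie above both WT libraries for Tfap2a, Krt8 and Krt18, while the lines overlap for Tfap2c and Elf5.

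Of the AP-2 genes, *Tfap2a* was higher in all 3 mutant lines. It had 24.0 and 54.9 normalized counts in the WT libraries, 170.4 and 179 in *Ezh2* KO, 153 and 121 in *Ezh1/2* dKO, and 136 and 91.7 in *Ezh2* Y726D. Every mutant library lay above both WT libraries, and the *Ezh2* KO libraries were the highest. The log2 fold change against WT was 2.23 in *Ezh2* KO (SE 0.38, limma, Benjamini-Hochberg adjusted p = 0.0758), 1.87 in *Ezh1/2* dKO (adjusted p = 0.0406) and 1.59 in *Ezh2* Y726D (adjusted p = 0.0827). Calls required an adjusted p under 0.1 together with a log2 fold change of 1 or more in size, and *Tfap2a* was called in the 3 comparisons, which share the WT libraries. In these bulk libraries, a change in the number of cells that express a gene and a change in the RNA per cell cannot be told apart. The call in *Ezh2* KO was lost in 5 of 8 fits that left out 1 library (WT replicate 1 and both libraries of *Ezh2* KO and of *Ezh1/2* dKO; adjusted p = 0.164 to 0.406, limma), and the call in *Ezh2* Y726D in 7 of 8 (all but WT replicate 2; 0.113 to 0.197). The call in *Ezh1/2* dKO was lost without either library of that line (adjusted p = 0.264 and 0.298, limma). With only WT and the mutant line in the fit the adjusted p was 0.162 in *Ezh2* KO and 0.302 in *Ezh2* Y726D (limma). In edgeR the adjusted p was 0.115 in *Ezh2* KO and 0.109 in *Ezh2* Y726D, and neither was called.

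*Tfap2c*, which encodes an AP-2 factor of trophoblast and of germ cells, did not pass in any comparison. It had 199 and 122 normalized counts in WT, 70.1 and 159.7 in *Ezh2* KO, 120.3 and 233 in *Ezh1/2* dKO and 54.4 and 179 in *Ezh2* Y726D. The lines overlapped, and in every line the libraries differed by more than the means of any pair of lines did. The log2 fold change in *Ezh1/2* dKO against WT was 0.10, with a 95% interval from -1.22 to 1.42, so changes of more than 2-fold in either direction lie within it. *Elf5* had too few reads for a test. Its reads numbered 0 and 1 in WT, 0 and 3 in *Ezh2* KO, 0 and 1 in *Ezh1/2* dKO and 0 and 1 in *Ezh2* Y726D, so each line had a library without a read. The ratio of *Ezh1/2* dKO to WT was 0.764 with an exact counting interval from 0.00974 to 60.0, and a difference was not detectable at this depth.

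The paired keratins *Krt8* and *Krt18* rose in *Ezh1/2* dKO and *Ezh2* Y726D. *Krt8* had 74.7 and 132 normalized counts in WT, 179.8 and 252 in *Ezh2* KO, 237 and 359 in *Ezh1/2* dKO, and 259 and 348 in *Ezh2* Y726D. *Krt18* had 56.0 and 50.1 in WT, 134 and 98.7 in *Ezh2* KO, 223 and 199 in *Ezh1/2* dKO, and 194 and 147 in *Ezh2* Y726D. For both genes all mutant libraries lay above both WT libraries, and for *Krt18* the *Ezh2* KO libraries lay between those of WT and those of the other 2 mutant lines. The log2 fold change of *Krt18* was 1.97 in *Ezh1/2* dKO (SE 0.26, limma, adjusted p = 0.0106) and 1.65 in *Ezh2* Y726D (adjusted p = 0.0214), and that of *Krt8* was 1.54 (SE 0.33, adjusted p = 0.0442) and 1.59 (adjusted p = 0.0495). In *Ezh2* KO the log2 fold change was 1.10 for *Krt18* (95% interval 0.53 to 1.68, limma, adjusted p = 0.182) and 1.09 for *Krt8* (0.36 to 1.82, adjusted p = 0.313), and neither was called there by limma. DESeq2 called *Krt18* in *Ezh2* KO (adjusted p = 0.0867). Without *Ezh1/2* dKO replicate 1 or 2, the adjusted p in that line was 0.137 and 0.149 for *Krt18* and 0.165 and 0.347 for *Krt8* in limma, in fits that called 7 and 1 genes higher over the whole table. With only WT and *Ezh2* Y726D in the fit, neither gene was called in *Ezh2* Y726D (limma, adjusted p = 0.144 for *Krt18* and 0.162 for *Krt8*). *Krt8* was also not called without WT replicate 1 (adjusted p = 0.127 in *Ezh1/2* dKO and 0.148 in *Ezh2* Y726D) and, in *Ezh2* Y726D, without replicate 2 of that line (0.173). RefSeq lists a *Krt8* pseudogene, and reads on *Krt8* are uncertain to the extent that the 2 copies share sequence.

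*Krt7* and *Krt19*, keratins of simple epithelia and ducts, had the highest values in *Ezh1/2* dKO but did not pass the test. *Krt19* had 49.4 and 11.6 normalized counts in WT, 8.36 and 29.0 in *Ezh2* KO, 107 and 134 in *Ezh1/2* dKO and 25.0 and 92.9 in *Ezh2* Y726D. Its *Ezh1/2* dKO libraries lay above all others, and the other 3 lines overlapped. The log2 fold change in *Ezh1/2* dKO was 2.27 against WT (SE 0.81, limma, adjusted p = 0.181) and 2.85 against *Ezh2* KO (adjusted p = 0.127). DESeq2 called both (adjusted p = 0.075 and 0.00937), and limma called the first without WT replicate 1 (adjusted p = 0.0979) and the second in 4 of 8 fits that left out 1 library (either WT or either *Ezh2* Y726D library; adjusted p = 0.0656 to 0.0757).

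*Krt7* had 2.67 and 0.963 normalized counts in WT, 8.36 and 0.968 in *Ezh2* KO, 14.8 and 13.3 in *Ezh1/2* dKO and 10.7 and 6.71 in *Ezh2* Y726D, from 3, 9, 33 and 18 reads per line. The *Ezh1/2* dKO and *Ezh2* Y726D libraries lay above both WT libraries, and the gene reached the minimum mean of 5 normalized counts for the test through these 2 lines. By reads the ratio to WT was 8.41 in *Ezh1/2* dKO (exact counting interval 2.64 to 42.8) and 5.32 in *Ezh2* Y726D (1.55 to 28.2), intervals that cover counting error only. The limma adjusted p was 0.144 and 0.344, and without *Ezh2* KO replicate 2 that of *Ezh1/2* dKO was 0.099.

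**Figure D2:**
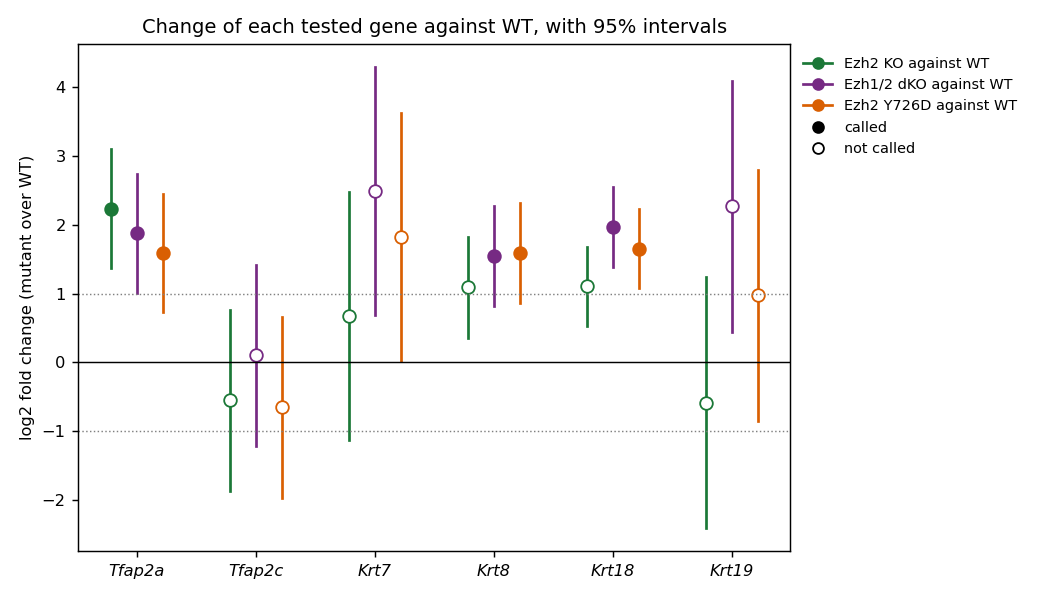
log2 fold change of the 6 tested genes in each mutant line against WT (points) with the 95% interval of the limma fit (vertical lines); filled points were called, and dotted lines mark a log2 fold change of 1 in either direction. The intervals of Tfap2a, Krt8 and Krt18 lie above 0 in every mutant line, and those of Tfap2c include 0 in every line.

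Counted together, 1 of the 6 tested genes was called higher in *Ezh2* KO (*Tfap2a*), where 0.0937% of all 13872 tested genes were, and 3 in *Ezh1/2* dKO and in *Ezh2* Y726D (*Tfap2a*, *Krt8* and *Krt18* in both), where 3.63% and 1.66% were. None of the 6 was called lower, and 0.31%, 0.389% and 1.06% of all genes were in the same order. The genes were chosen with earlier results of these data known, so the shares of all genes give a scale and are no test of the group. Over all genes, the 503 higher and 54 lower calls in *Ezh1/2* dKO became 290 and 129 after quantile normalization, with the same 3 of the 6 genes called. The median log2 fold change of the 6 genes was 0.88, 1.92 and 1.59, and that of all tested genes was -0.01, 0.01 and -0.01. *Krt7*, 1 of the 6, reached the minimum mean for the test through *Ezh1/2* dKO and *Ezh2* Y726D. The medians of these lines therefore rest in part on a gene that the filter let in for being high there. Between mutant lines, no gene of the 6 was called by limma. In *Ezh1/2* dKO against *Ezh2* KO, where 3.52% of all genes were called higher and 0.0577% lower, 3 of the 6 had an unadjusted p under 0.05 (*Krt7*, *Krt18* and *Krt19*), and edgeR called 0 and DESeq2 1. *Krt18* was 0.87 higher on the log2 scale there (95% interval 0.29 to 1.44, limma, adjusted p = 0.144). In *Ezh2* Y726D against *Ezh2* KO (2.31% higher and 1.21% lower over all genes) and against *Ezh1/2* dKO (0.187% and 1.49%), no gene of the 6 had an unadjusted p under 0.05, and edgeR and DESeq2 called none. For *Krt8* the difference of the last 2 lines was 0.04 with a 95% interval from -0.69 to 0.78.

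Markers of other cell types also moved, in lines and directions that differed by cell type. The summed level of 9 primitive endoderm markers, genes of the other extraembryonic lineage of the blastocyst, was 449.6 to 538 normalized counts in WT, 375 to 678 in *Ezh2* KO, 1338 to 1342 in *Ezh1/2* dKO and 1018 to 1768 in *Ezh2* Y726D. Of the 6 tested, 0, 3 (*Gata4*, *Dab2* and *Col4a1*) and 1 (*Col4a1*) were called higher in the mutant lines, in the order just given, where 0.0937%, 3.63% and 1.66% of all tested genes were. The 0 of *Ezh2* KO was also 0 at an unadjusted p under 0.05 and in edgeR and DESeq2. Most of each sum came from the basement membrane genes *Col4a1* and *Lama1*. *Col4a1* had 146.7 and 80.9 normalized counts in WT, 896 and 659.7 in *Ezh1/2* dKO and 718 and 954 in *Ezh2* Y726D. The defining markers *Gata6*, *Sox17* and *Foxa2* had at most 12, 2.89 and 0.963 in any library, and *Gata4* at most 22.3. *Sox17* and *Foxa2* had no read in *Ezh2* KO and *Ezh2* Y726D, and *Gata6* had none in *Ezh2* KO. Fibroblast markers, 5 in the table, summed to 7.70 to 14.7 in WT, 16.4 to 18.8 in *Ezh2* KO, 111 to 122 in *Ezh1/2* dKO and 90.1 to 90.6 in *Ezh2* Y726D, of which *Thy1* alone made up 88.2 and 101 in the *Ezh1/2* dKO libraries. *Thy1*, the only gene of the list that was tested, was called higher in the last 2 lines, and *Lum* had no read outside *Ezh1/2* dKO. The 4 markers of 2-cell-like cells in the table summed to 282 to 666, 27.1 to 29.3, 691 to 961 and 80.2 to 130 in the same order, with 2 called lower in *Ezh2* KO and in *Ezh2* Y726D, where 0.31% and 1.06% of all tested genes were. The part of other cell types in the changes of the 7 genes was not tested.

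At the chromatin of the 7 genes, WT cells had both PRC2 and its mark at all but *Elf5*. A SUZ12 peak (p at most 1e-10) lay within 5 kb of an annotated start of 6 of the 7 genes in WT, where 17.4% of 16418 protein-coding genes had one, and an H3K27me3 peak at the same 6, against 22.3% of all genes. With 1 library per line and unknown depth, no difference between lines was tested, and the Drosophila chromatin added for scaling has no part in these peak lists. *Tfap2a* had the strongest SUZ12 binding of the 7, with 5 WT peaks that covered 9942 bp and a highest -log10 p of 127, above 98.5% of all WT SUZ12 peaks. The WT peaks of *Tfap2c* (-log10 p of 20.2) and *Krt18* (21.7) were below the median of the list, 23.0, and those of *Krt8* (12), *Krt7* (10.8) and *Krt19* (10.7) were close to the threshold. *Elf5* had no SUZ12 or H3K27me3 peak at a promoter in any line, and its nearest WT peaks lay 118 kb (SUZ12) and 114 kb (H3K27me3) from a start.

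None of the 7 genes had, in *Ezh1/2* dKO, a SUZ12 peak (1.16% of all genes had one) or an H3K27me3 peak (0.11%), and the H3K27me3 list of this line held 53 peaks, none of them on chromosome 13 or 15, where *Tfap2a* and 3 of the keratins lie. In *Ezh2* Y726D, SUZ12 peaks were listed at 3 of the 7 genes, *Tfap2a*, *Tfap2c* and *Krt18* (12.3% of all genes), and H3K27me3 peaks at none (1.36%). The *Krt18* peak of *Ezh2* Y726D (-log10 p of 14.5) had its summit at the same base as the WT peak, within the promoter sequence shown above. At *Tfap2a* the *Ezh2* Y726D peak covered 304 bp.

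In *Ezh2* KO the 7 genes parted in H3K27me3. Peaks remained at 4 (17.3% of all genes), *Tfap2a* with 4 peaks over 6930 bp, *Tfap2c* with 2 over 8851 bp and a -log10 p of 199, *Krt7* with 1 and *Krt19* with 1. *Krt8* and *Krt18* had none, and the nearest peak lay 79.8 and 104 kb away. A SUZ12 peak was listed at *Tfap2c* alone (4.92% of all genes). *Tfap2a* had H3K27me3 peaks, with a highest -log10 p of 46.9, in the line in which its level was highest. In *Ezh2* R685C, which has no RNA-seq, H3K27me3 peaks lay at the same 6 genes as in WT (28.5% of all genes), with highest -log10 p from 21.2 at *Krt8* to 198 at *Tfap2c*, and SUZ12 peaks at *Tfap2a* and *Tfap2c* (9.92%).

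*Tfap2a* had H3K27ac peaks in all 4 mutant lines, with a highest -log10 p of 35.6 in *Ezh2* KO, 24.6 in *Ezh1/2* dKO, 40.6 in *Ezh2* Y726D and 17.8 in *Ezh2* R685C. It was the only one of the 7 with such a peak in *Ezh2* KO (49.4% of all genes), *Ezh1/2* dKO (37.3%) and *Ezh2* R685C (59.5%). In *Ezh2* Y726D, peaks lay at *Tfap2a*, *Tfap2c* (32.1), *Krt8* (15.5) and *Krt18* (10.9), 4 of the 7, a share near the 60.8% of all genes that had one in this line. The lists of *Ezh2* Y726D and *Ezh2* R685C were of like length (40829 and 41185 peaks), and that of *Ezh1/2* dKO was shorter (17618). *Krt8* and *Krt18* had no H3K27ac peak in *Ezh1/2* dKO, where their RNA was called higher, and the nearest peak there lay 69.5 and 45.7 kb away. H3K27ac of WT was not analysed, so these lists cannot show whether a peak was gained.

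**Figure D3:**
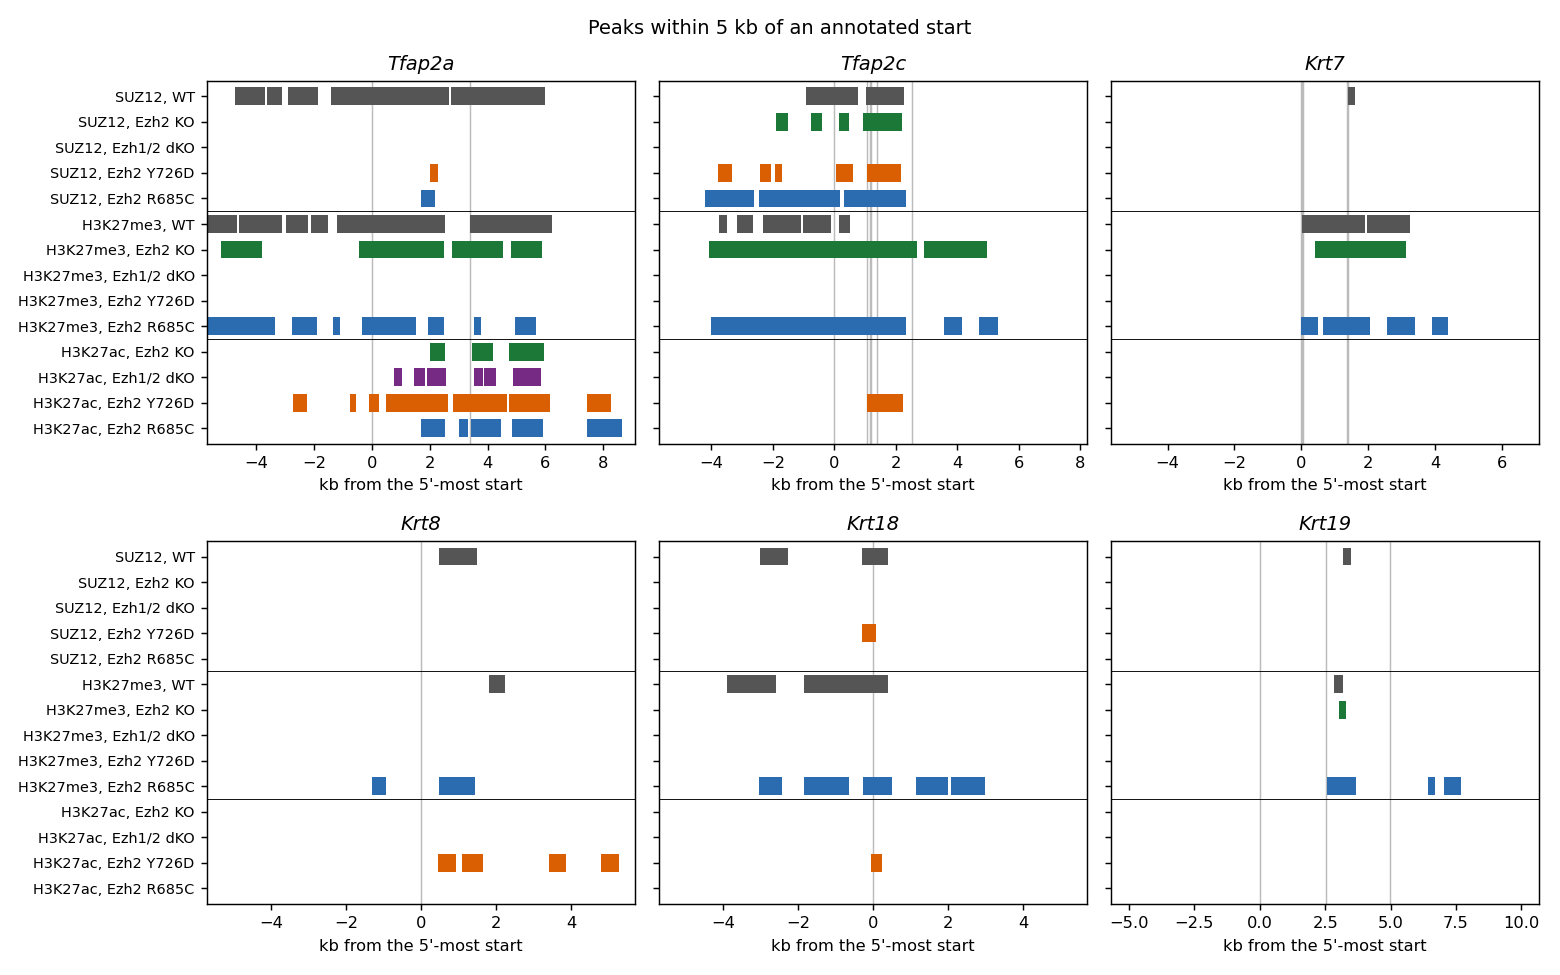
Peaks of SUZ12, H3K27me3 and H3K27ac (bars; 1 row per target and line) within 5 kb of an annotated start (grey vertical lines) of the 6 genes with a peak, by distance in kb from the 5′-most start along the gene. WT bars of SUZ12 and H3K27me3 are present in all 6 panels, no SUZ12 or H3K27me3 bar is present for Ezh1/2 dKO, and H3K27ac bars appear at Krt8, Krt18 and Tfap2c for Ezh2 Y726D only.

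The other lists gave weaker values. In *Ezh1/2* dKO cells given back an HA-tagged EZH1, HA peaks lay at *Elf5*, *Tfap2a* and *Tfap2c*, 3 of the 7 (13.3% of all genes), and in *Ezh1/2* dKO cells without it at none (3.7%). The *Elf5* peak was 266 bp wide. Broad H3K27me2 regions within 1 kb of a start were listed at *Elf5* and *Krt8* in WT (55.3% of the genes on the chromosomes in the list had one), at all 7 genes in *Ezh2* KO (40.7%), at *Elf5*, *Krt7* and *Krt18* in *Ezh1/2* dKO (56.5%) and at all 7 in *Ezh2* Y726D (64.0%). The -log10 p in *Ezh2* KO ran from 2.04 at *Elf5* to 7.40 at *Tfap2c*, percentiles 71.5 to 97.6 of all genes, and in *Ezh2* Y726D from 1.15 to 1.66. In *Ezh1/2* dKO it ran from 1.15 at *Krt18* to 1.59 at *Krt7*. H3K27me1 regions were listed at *Elf5* alone in WT (51.5%) and at all 7 in *Ezh2* KO (37.6% of all genes), with a -log10 p of at most 1.98. In *Ezh1/2* dKO they were listed at *Elf5* (1.89, percentile 96.3), *Krt7* (percentile 84.6) and *Krt8* (percentile 57.0). Of the 13990 genes on the chromosomes of that list 47.1% had one, and chromosome 13, where *Tfap2a* lies, was not among them. In *Ezh2* Y726D they were listed at *Elf5* (percentile 72.9) and *Tfap2c* (1.84, percentile 96.0), where 70.0% of the genes on the listed chromosomes had one. That list covered 8849 of 16418 protein-coding genes and lacked chromosomes 13 and 15. The paper reports that both of these lines lost all methylation of this histone lysine. A region listed there is therefore not read as a sign of H3K27me1 or H3K27me2, and whether such regions are background was not tested. ATAC-seq regions were listed at all 7 genes in all 4 lines, as at 97.1% to 97.3% of all genes.

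Related genes were counted from lists chosen by function, with earlier results of these data known. Of 15 other trophoblast genes tested, 2 were called higher in *Ezh1/2* dKO (*Gata3* and *Plac1*) and 1 in *Ezh2* Y726D (*Gata3*), where 3.63% and 1.66% of all tested genes were, with list medians of 0.84 and 0.91 on the log2 scale. In *Ezh2* KO limma called 0 of 15, where 0.0937% of all tested genes were called higher and 0.31% lower. There were 3 of the 15 at an unadjusted p under 0.05 and 0 called in edgeR and DESeq2, and the median was -0.08. *Gata3*, a trophectoderm transcription factor, had 50.7 and 21.2 normalized counts in WT, 115 and 61.0 in *Ezh2* KO, 193 and 135 in *Ezh1/2* dKO and 124 and 107 in *Ezh2* Y726D. All mutant libraries lay above both WT libraries. Its log2 fold change was 2.26 in *Ezh1/2* dKO (limma, adjusted p = 0.0375), 1.78 in *Ezh2* Y726D (adjusted p = 0.0928) and 1.32 in *Ezh2* KO (adjusted p = 0.383, not called). In *Ezh2* Y726D against WT edgeR called none of the 15 and DESeq2 called 2. *Plac1*, a placental gene, had 3 reads in WT and 49 in *Ezh1/2* dKO, a ratio of 12.5 (exact counting interval 4.03 to 62.6), and it reached the minimum mean for the test through the *Ezh1/2* dKO libraries. *Cdx2*, a defining trophectoderm factor, was not called and had 70.7 and 9.63 normalized counts in WT and 33.0 and 439.7 in *Ezh2* Y726D, where replicate 2 stands far above all other libraries. *Eomes* had 28.9 to 36.0 in WT and 43.7 and 111 in *Ezh2* Y726D, and *Hand1* at most 10.1 in any library.

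Of 23 epithelial junction genes, 3 were called higher in *Ezh1/2* dKO and 2 in *Ezh2* Y726D, beside the same shares over all genes. *Grhl2*, a transcription factor of epithelial identity, had 17.3 and 8.67 normalized counts in WT, 144 and 59.0 in *Ezh2* KO, 136.8 and 57.7 in *Ezh1/2* dKO and 187 and 95.1 in *Ezh2* Y726D. All mutant libraries lay above both WT libraries, and those of *Ezh2* KO overlapped with those of both other mutant lines. Its log2 fold change was 2.81 in *Ezh2* KO (limma, adjusted p = 0.126, not called), 2.76 in *Ezh1/2* dKO (adjusted p = 0.0445) and 3.34 in *Ezh2* Y726D (adjusted p = 0.0324). The desmosome genes *Dsp* (1.42, adjusted p = 0.0958, limma) and *Dsc2* (1.98, adjusted p = 0.0994) were the others in *Ezh1/2* dKO, and *Perp*, which encodes a desmosome protein, was the other in *Ezh2* Y726D (1.42, adjusted p = 0.019). The list median was 0.66 on the log2 scale in *Ezh1/2* dKO, 0.34 in *Ezh2* Y726D and 0.17 in *Ezh2* KO, where limma called 0 of 23 (5 at an unadjusted p under 0.05, 0 in edgeR and 1 in DESeq2). Over all tested genes, 0.0937% were called higher and 0.31% lower in *Ezh2* KO. Of 24 other keratin genes in the table, 6 were expressed enough for a test. Only 1 of them, *Krt12*, a keratin known from the cornea, was called higher in *Ezh1/2* dKO and *Ezh2* Y726D by limma. The shares called higher over all tested genes were 3.63% and 1.66%. The list median was 0.55 and 0.05 on the log2 scale in the same order, with 4 and 3 of the 6 genes higher than in WT. In *Ezh2* Y726D neither edgeR nor DESeq2 called any of the 6, and *Krt12* reached the minimum mean for the test through the 2 lines in which it was high. It had no read in WT and 30 and 14 reads in these lines. Against a floor of 3 reads over the group the ratios were 7.64 and 4.14, and the exact counting intervals began at 5.84 and 2.94. Relatives of the AP-2 and ELF factors had 5 tested genes, and limma, edgeR and DESeq2 called none of them in any line against WT (1, 1 and 0 at an unadjusted p under 0.05).

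**Figure D4:**
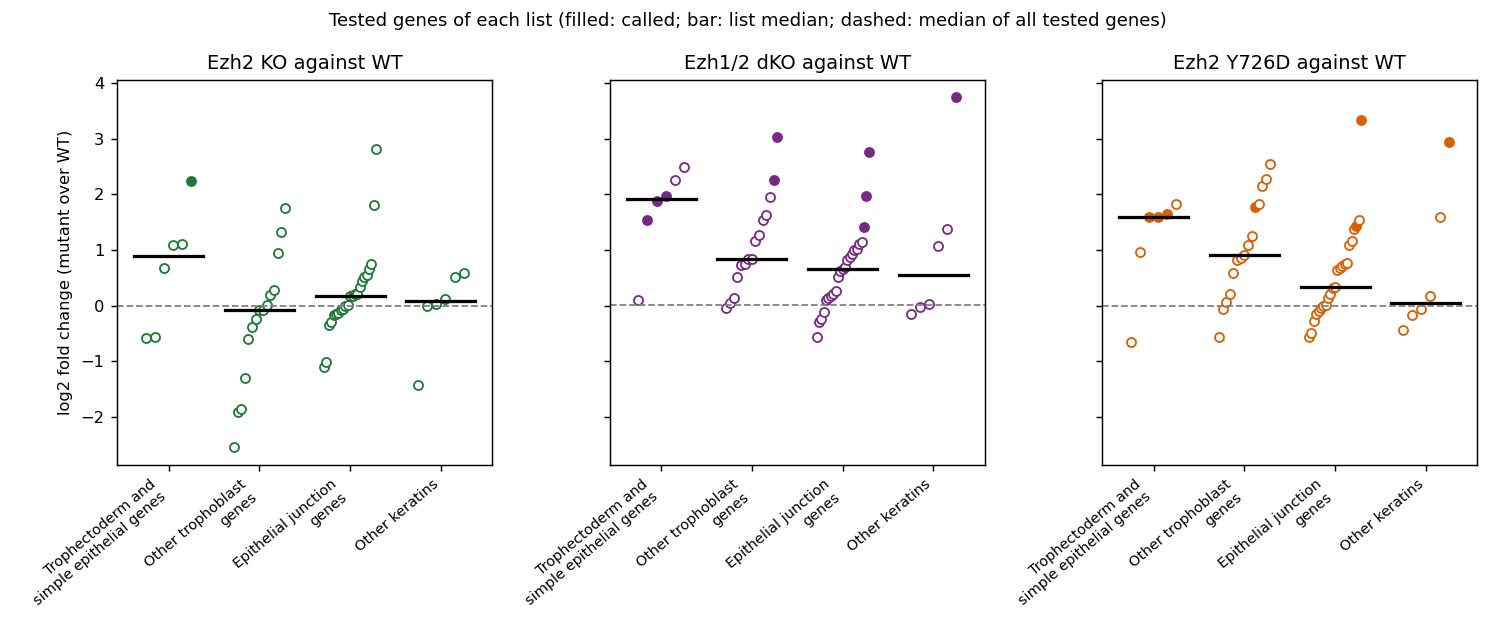
log2 fold change against WT of each tested gene (points, filled where called) in the 6 tested genes described here and in the lists of 15 other trophoblast genes, 23 epithelial junction genes and 6 other keratins, 1 panel per mutant line; black bars are list medians and the dashed line is the median of all tested genes. The bar of the first list is at 0.88, 1.92 and 1.59 from left to right, and the filled keratin point is Krt12, whose value rests on no read in WT and on the pseudocount. Krt7, Plac1 and Krt12 reached the minimum mean for the test through lines in which they were high.

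The 5 tested genes with the profile nearest to the mean of *Krt8* and *Krt18* over the 8 libraries were *Arhgef10*, *Piwil2*, *Ddx43*, *Zadh2* and *Emp2*, with root mean square differences of 0.13 to 0.18 on the log2 scale. *Krt8* and *Krt18* themselves were 0.24 from their mean. *Piwil2*, a PIWI gene of the germ line, averaged 61.2 normalized counts in WT and 133 (*Ezh2* KO), 214 (*Ezh1/2* dKO) and 182 (*Ezh2* Y726D) in the mutant lines. *Emp2*, which encodes an epithelial membrane protein, averaged 59.5, 125, 199.9 and 141 in the same order. *Tfap2a* stood at 0.56, *Krt7* at 0.79, *Tfap2c* at 1.04 and *Krt19* at 1.18 from this profile.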

How the data were processed

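RNA-seq reads had been mapped with TopHat and assigned to genes with HTSeq-count, and the deposited values are normalized counts made by the authors with DESeq2, a signal equal to the reads of a gene over the size factor of its library. In each library 100% of the values came out as whole reads (tolerance 1e-06 reads), and these reads were recovered for count models. Intervals on reads cover counting error only, since no molecular identifiers were used. ChIP-seq and ATAC-seq reads had been mapped to mm9 with Bowtie, PICARD had taken out duplicates, and MACS2 had called peaks per library; the -log10 p of each peak was used as deposited, and the HA lists hold positions only. The deposited comparisons hold the authors' DESeq2 fold changes and p-values and were not used.

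limma 3.58.1 (R 4.3.3) was fitted with a trend to log2 of the normalized count plus 1, over all 8 libraries and genes with a mean of at least 5, with Benjamini-Hochberg adjustment over all 13872 genes tested; fold changes on this scale understate those of low genes. Calls need an adjusted p under 0.1 with a change of at least 1 on the log2 scale. edgeR 4.0.16 and DESeq2 1.42.0 on recovered reads, other pseudocounts, filters, scalings, windows and peak thresholds were alternatives. The calculations were tested on simulated data. Starts and exon lengths are those of the GENCODE annotation of mm9 (16570 of 18055 genes matched by symbol, 797 by a synonym, as *Tfap2a* and *Tfap2c* were, and 688 not), and promoter sequences are RefSeq's; Python 3.11.15 was used. Named are the 7 genes, the targeted genes, genes of the fixed lists called against WT (at most 6 per list), marker genes, and the 5 nearest profiles. The genes and lists were chosen with earlier results of these data known. SUZ12 and H3K27me3 samples whose labels give Y726D but not the *Ezh1* KO were treated as the *Ezh2* Y726D line. Not analysed here were RING1B, H2AK119ub, WT H3K27ac, input, the MG132 experiment with its DMSO controls, and rescue lines with EZH2.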

Additional observations from a re-analysis of the deposited data

How the results depend on the processing

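Of 678 alternative log2 fold changes, 17 changed sign, all of differences that were not called. *Tfap2c* in *Ezh1/2* dKO against WT was -7.85e-05 after quantile normalization and -0.37 to 0.57 with 1 library left out (below 0 without WT replicate 2, -0.25, or *Ezh1/2* dKO replicate 2). With 1 library left out, *Tfap2c* ranged from -1.14 to 0.034 in *Ezh2* KO against WT (above 0 without *Ezh2* KO replicate 1) and, in *Ezh2* Y726D, from -1.50 to 0.20 against WT and -1.60 to 0.096 against *Ezh1/2* dKO (above 0 without *Ezh2* Y726D replicate 1). In *Ezh2* Y726D against *Ezh2* KO it was 0.000413 in edgeR, 0.0151 in DESeq2 and -0.95 to 0.75 with 1 library left out (above 0 without *Ezh2* Y726D replicate 1 or *Ezh2* KO replicate 2, 0.49). *Krt8* in *Ezh2* Y726D against *Ezh1/2* dKO was -0.00355 with upper-quartile rescaling and -0.25 to 0.34 with 1 library left out (below 0 without *Ezh1/2* dKO replicate 1 or *Ezh2* Y726D replicate 2, -0.17). *Krt19* ranged from -1.59 to 0.42 in *Ezh2* KO against WT (above 0 without WT replicate 1 or *Ezh2* KO replicate 1, 0.26) and from -0.029 to 1.98 in *Ezh2* Y726D against WT (below 0 without WT replicate 2), and *Krt7* from -0.45 to 1.8 in *Ezh2* KO against WT (below 0 without *Ezh2* KO replicate 1). *Tfap2a*, *Krt8* and *Krt18* against WT kept their direction in all 171 alternative values; in 33 a call was lost and in 1 it was gained.

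Of the 6 genes, the number called in *Ezh2* KO against WT was 0 without a filter, in edgeR, with only the 2 lines and at an adjusted p under 0.05, and 2 in DESeq2. In *Ezh2* Y726D against WT it was 0 with only the 2 lines. In *Ezh1/2* dKO against *Ezh2* KO it was 1 (*Krt19*) with a pseudocount of 5, in DESeq2 and with only the 2 lines. Leaving out 1 library gave 0 to 1 in *Ezh2* KO, 0 to 4 in *Ezh1/2* dKO and 1 to 3 in *Ezh2* Y726D against WT, and 0 to 1 in *Ezh1/2* dKO against *Ezh2* KO; a line left with 1 library was assumed to vary like the others. The cause of the other changes was not tested. With the replicate number as a block, the numbers called against WT were 0 (*Ezh2* KO), 3 (*Ezh1/2* dKO) and 2 (*Ezh2* Y726D), *Tfap2a* being lost in the first and last. The numbers were not taken as pairs, since the differences between replicates correlated from -0.41 to 0.29 between lines.

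Over all genes, 13 higher and 43 lower calls in *Ezh2* KO against WT became 7 and 28 without a filter, 9 and 25 both after quantile normalization and with the replicate block, 7 and 23 in edgeR, 46 and 103 in DESeq2, 5 and 23 with only the 2 lines, and 6 and 25 at an adjusted p under 0.05. The 503 and 54 of *Ezh1/2* dKO against WT became 290 and 129 after quantile normalization and 254 and 31 at an adjusted p under 0.05. In *Ezh2* Y726D against WT, 230 and 147 became 20 and 12 with only the 2 lines and 117 and 83 at the stricter p. In *Ezh1/2* dKO against *Ezh2* KO, 488 and 8 became 253 and 5 at a mean of at least 20, 166 and 10 after quantile normalization, 1124 and 57 with only the 2 lines and 297 and 2 at the stricter p. In *Ezh2* Y726D, 321 and 168 against *Ezh2* KO became 146 and 82 with only the 2 lines and 174 and 92 at the stricter p, and 26 and 207 against *Ezh1/2* dKO became 50 and 168 after quantile normalization, 17 and 133 with only the 2 lines and 9 and 94 at the stricter p.

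At a p of at most 1e-20 the genes with a peak numbered 3 (WT), 1 (*Ezh2* Y726D) and 1 (*Ezh2* R685C) for SUZ12, 2 for H3K27me3 in WT, and 2 (*Ezh2* Y726D) and 0 (*Ezh2* R685C) for H3K27ac, and within 1 kb SUZ12 in *Ezh2* R685C numbered 1. The other 63 of 70 counts stayed within 1.5 times. Depth limits *Elf5* and *Krt7*, with at most 3 and 18 reads in a library.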
